A study of Homo sapiens with 4 samples.

Results

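The HAND factors, the E proteins they pair with and the ID inhibitors that compete for those partners were followed as a single network of 10 genes out of 58229 in the expression table. The genes were chosen as families, with earlier results of these data known: HAND1, HAND2 and HAND2-AS1, TCF3, TCF4 and TCF12, and ID1, ID2, ID3 and ID4. Each matched a row of the table by its symbol, and all 10 passed the filter on low values, at least 1 FPKM in at least 2 libraries. In FPKM the fragments of each gene are scaled to transcript length and library depth, so levels of different genes can be set side by side per length. RNA came from CD31+ cells collected at day 8 of hematopoietic differentiation of H1 cells, a human embryonic stem cell line. Control cells (2 libraries, replicates 1 and 2) carried no HAND1 overexpression, and HAND1_OE cells (2 libraries, replicates 1 and 2) overexpressed HAND1. Both groups went through the same stepwise culture, first in activin A and BMP4 and then in VEGF and bFGF. A scheme of the study shows doxycycline present or absent in the last days before collection, which the labels do not mention, so whether Control cells received it is not known here. The vector, its promoter, the clonality of the HAND1_OE cells and whether replicates were separate cultures are not given in the sources used here, so p-values measure only the spread between these libraries.

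HAND1 and HAND2 are basic helix-loop-helix (bHLH) transcription factors of the tissue-restricted class II, known from the heart, limb, lateral mesoderm and, for HAND1, the placenta. Like TAL1 and LYL1 in blood, they bind E-box DNA mainly as dimers with widely expressed E proteins, which TCF3, TCF4 and TCF12 encode. ID proteins keep the helix-loop-helix but lack the basic DNA-binding region, so that they hold E proteins in dimers that cannot bind DNA, and ID genes are well-known targets of BMP signalling. The amounts of class II factors, E proteins and ID proteins in the same cell therefore bear on which dimers can form. The RNA levels below are not protein levels, and dimers were not measured.

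Markers of the sorted cells and of other cell types were read before the comparisons. PECAM1, which encodes CD31, was at 95.5 and 141 FPKM in Control and 92.0 and 160.2 FPKM in HAND1_OE, and CDH5, an endothelial cadherin, at 261 and 222 FPKM and at 257 and 280.2 FPKM. All 10 endothelial markers were tested and their summed level was 1316 to 1482 FPKM in Control and 1281 to 1424 FPKM in HAND1_OE. Of them 1 (CLDN5) was called lower by limma, which called 2.11% of all genes tested lower and 2.04% higher. Groups lay apart for 5 of the 10 (4 of them lower), beside 46.3% of all genes. EMCN lay higher (log2 fold change 1.33, limma adjusted p = 0.0688) and ROBO4 lower (-1.32, limma adjusted p = 0.217), and neither passed. Of 10 blood markers 8 were tested and all 8 were lower, with a summed level of 249 to 323 FPKM in Control and 11.6 to 22.8 FPKM in HAND1_OE. Among them SPN (CD43) fell from 18.9 and 21.1 FPKM to 1.92 and 0.974 FPKM (log2 fold change -3.13, adjusted p = 0.00700), and GATA1, the master regulator of red cells, from 25.6 and 29.6 FPKM to 1.51 and 0.543 FPKM (-3.86, adjusted p = 0.00700). The leukocyte marker PTPRC and the granule enzyme MPO were at or under 0.0769 FPKM in all 4 libraries. The summed level of 8 smooth muscle and mesenchyme markers was 282 to 368 FPKM in Control and 452 to 539 FPKM in HAND1_OE, and 1 of the 7 tested, PDGFRB, was called higher. Most of the difference in that sum was COL3A1 (159.7 and 97.9 FPKM in Control, 325 and 241 FPKM in HAND1_OE, limma adjusted p = 0.1004). Groups lay apart for 5 of the 7 tested (4 of them higher), beside 46.3% of all genes. PDGFRA lay higher and did not pass (log2 fold change 1.20, limma adjusted p = 0.05465). COL1A1 (-0.23) lay lower with groups apart and did not pass, and the groups of TAGLN (-0.42) overlapped. The 6 pluripotent markers, of which 4 were tested and limma called 0 (2 lower at an unadjusted p under 0.05), summed to 63.9 to 72.6 FPKM in Control and 33.4 to 47.3 FPKM in HAND1_OE. Summed FPKM over all genes was 536284 to 606609 per library and 13989 to 14542 genes reached 1 FPKM. In bulk RNA, fewer cells of a type and less RNA per cell cannot be told apart.

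HAND1 (ENSG00000113196.2, GRCh38 chromosome 5, 154474972 to 154478264) was measured first as the check of the label. Its level was 12.1 and 14.3 FPKM in Control replicates 1 and 2 and 520.5 and 517 FPKM in HAND1_OE replicates 1 and 2. The groups lay far apart and the libraries within each were close. The mean was 519 ± 2.17 FPKM (SD, n = 2) in HAND1_OE against 13.2 ± 1.59 FPKM (SD, n = 2) in Control, a 39.3-fold ratio. On the log2(FPKM + 1) scale, used for all fold changes here and understating those of low genes, the rise was 5.20 (standard error 0.152, 95% interval 4.82 to 5.58, limma adjusted p = 0.00145). Among the 14622 genes tested HAND1 ranked 6348 and 5659 by level in the Control libraries and 148 and 130 in the HAND1_OE libraries. The values do not separate introduced from endogenous HAND1 transcripts, and they rest on the length annotated for the endogenous gene.

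**Figure D1:**
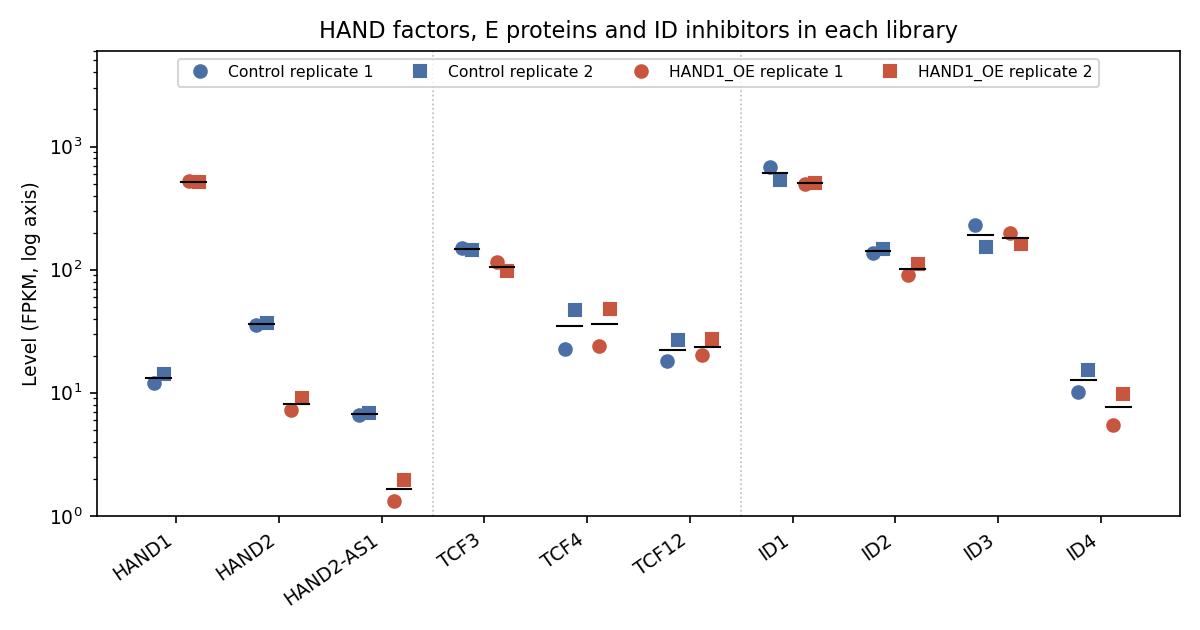
Levels of the 10 genes in each library (FPKM, logarithmic axis); circles are replicate 1, squares replicate 2, blue Control and red HAND1_OE, and black lines are group means of 2 libraries. HAND1 sits near 13.2 FPKM in Control and 519 FPKM in HAND1_OE, HAND2 and HAND2-AS1 sit lower in HAND1_OE, and the 2 libraries of each group spread most for TCF4.

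Besides HAND1, 2 of the other 9 genes were called, both lower (HAND2 and HAND2-AS1), and 0 were called higher. Over all genes tested, limma called 608 (4.16%) at an adjusted p under 0.05, of which 299 (2.04%) were higher and 309 (2.11%) lower in HAND1_OE. At an unadjusted p under 0.05, 2 further members were lower (TCF3 and ID2) and 0 higher. After removal of the length and GC trend of each library, the calls over all genes split into 412 higher and 283 lower. In 6 of the 9 genes (66.7%) both HAND1_OE libraries lay below both Control libraries, and in 3 the groups overlapped. Over all genes tested, groups did not overlap in 46.3%. The median log2 fold change of the 9 genes was -0.48, beside -0.078 over all genes tested.

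HAND2 fell with HAND1 overexpression. HAND2 (ENSG00000164107.8, chromosome 4, 173524969 to 173530229), the paralog of HAND1, was at 35.4 and 36.8 FPKM in Control against 7.24 and 9.09 FPKM in HAND1_OE. Means were 36.1 ± 0.970 FPKM (SD, n = 2) and 8.17 ± 1.31 FPKM (SD, n = 2), a level 4.42-fold lower. The log2 fold change was -2.02 (standard error 0.167, 95% interval -2.44 to -1.61, limma adjusted p = 0.00730). With HAND1 overexpressed by design, the order of the paralogs turned over. HAND2 was above HAND1 in both Control libraries, with HAND1 to HAND2 ratios of 0.341 and 0.389. It was far below HAND1 in both HAND1_OE libraries, with ratios of 71.9 and 56.9.

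HAND2-AS1, the long noncoding RNA transcribed divergently from and in part antisense to HAND2, moved with it. HAND2-AS1 (ENSG00000237125.8, chromosome 4, 173527270 to 173591324) was at 6.58 and 6.85 FPKM in Control against 1.32 and 1.97 FPKM in HAND1_OE, so that the groups did not overlap. Its mean fell from 6.72 ± 0.188 FPKM to 1.64 ± 0.462 FPKM (SD, n = 2), 4.09-fold lower, with a log2 fold change of -1.56 (standard error 0.203, 95% interval -2.06 to -1.05, limma adjusted p = 0.0215). The HAND2 to HAND2-AS1 ratio was 5.38 and 5.37 in Control and 5.51 and 4.62 in HAND1_OE. The call of HAND2-AS1 was lost without Control replicate 1 (adjusted p = 0.0618) or Control replicate 2 (adjusted p = 0.0729), with log2 fold changes of -1.58 and -1.53. In GENCODE release 29 the genes share 867 exonic bases, 24.1% of the 3601 of HAND2 and 4.09% of the 21212 of HAND2-AS1, and whether counting used strand is not given in the sources used here. Reads from the shared bases may therefore belong to either gene.

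The sequence upstream of HAND2 is shown because both transcripts that fell start around it. These are the 250 bases before the RefSeq start of HAND2 at base 173530229, on the minus strand of chr4:173530230-173530479 (GRCh38.p14), read 5′ to 3′ towards HAND2, with the E-box of the form CANNTG in capitals.
HAND2 upstream: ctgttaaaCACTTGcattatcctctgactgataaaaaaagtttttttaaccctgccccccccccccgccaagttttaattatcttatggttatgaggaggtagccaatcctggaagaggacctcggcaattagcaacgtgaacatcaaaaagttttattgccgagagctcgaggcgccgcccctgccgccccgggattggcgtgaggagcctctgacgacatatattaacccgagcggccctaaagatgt
RefSeq starts HAND2-AS1 at base 173528600 and at base 173530458 on the plus strand, and the latter start lies inside the printed window, 229 bases from that of HAND2 and head to head with it. The window held 1 E-box (CACTTG), whose first base lies 242 bases before the start of HAND2. Of 35116 such windows of 250 bases before RefSeq gene starts, 61.8% held at least 1 CANNTG, a form that reads the same on both strands. The form CATCTG, a subset of CANNTG searched on both strands, was in 12.2% of windows and not in the HAND2 window, while the 250 bases before the other HAND2-AS1 start held 1. The motif is a match of letters, and binding was not measured.

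Marker lists of tissues in which HAND2 is known were read beside its fall. Of 8 cardiac muscle markers 5 were tested and 1 (TNNI3) was called lower. TNNI3 reached 1 FPKM only in the Control libraries and so passed the filter through that group alone. TNNT2 (log2 fold change 1.20, limma adjusted p = 0.0914) and ACTC1 (1.01, limma adjusted p = 0.189) lay higher with groups apart and did not pass. NKX2-5 (-0.82, limma adjusted p = 0.250) lay lower with groups apart and did not pass either. The summed level of the 8 markers was 39.8 to 67.5 FPKM in Control and 54.3 to 55.2 FPKM in HAND1_OE. The summed mesenchyme markers, mostly through COL3A1, lay higher, as given above. The 7 trophoblast markers, of a tissue in which HAND1 is known, summed to 28.2 to 29.7 FPKM in Control and 27.0 to 31.5 FPKM in HAND1_OE. Nearly all of this sum was GATA3 (28.7 and 26.9 FPKM in Control, 26.1 and 30.6 FPKM in HAND1_OE), the only one to pass the filter. The other 6 were under 1 FPKM in every library, and CGB5 was listed at 0 throughout. The part of these cell types and of the lower blood markers in the changes of HAND2 and HAND2-AS1 was not tested.

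**Figure D2:**
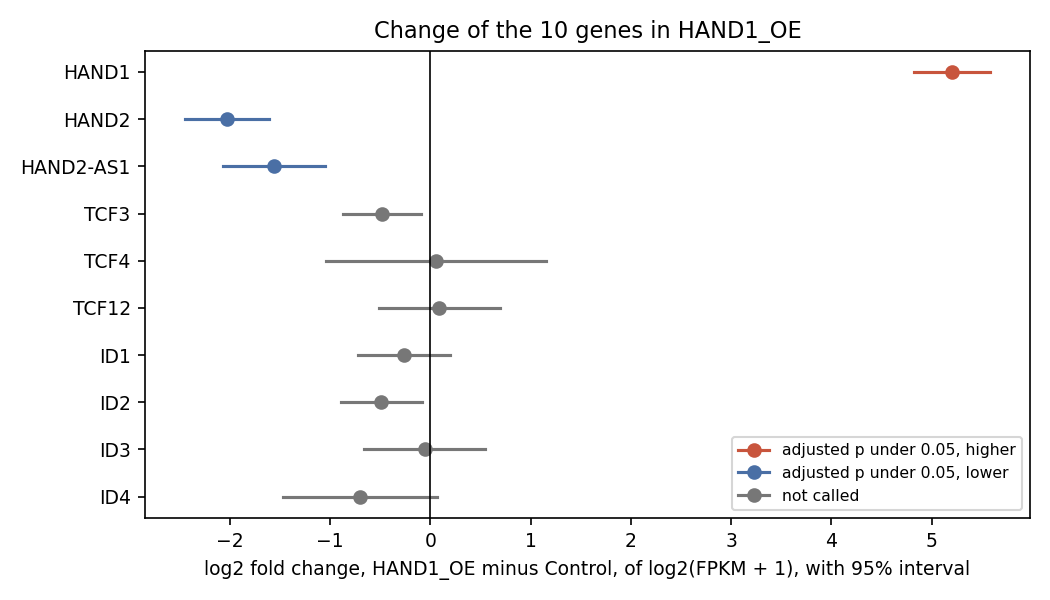
log2 fold change of each gene (HAND1_OE minus Control, of log2(FPKM + 1); points) with its 95% interval from limma (bars); colours mark the call at an adjusted p under 0.05. HAND1 lies at 5.20, HAND2 at -2.02 and HAND2-AS1 at -1.56, and the E protein and ID genes lie between -0.70 and 0.09 with no call.

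None of the 3 E protein genes passed the limma test, and TCF3 was the only one of them whose groups lay apart. TCF3 (ENSG00000071564.14, chromosome 19, 1609290 to 1652605) encodes the E2A proteins, partners of TAL1 in early blood cells. It was at 151 and 143 FPKM in Control against 114 and 97.0 FPKM in HAND1_OE, with means of 147 ± 5.35 and 106 ± 12.4 FPKM (SD, n = 2). The log2 fold change was -0.48 (standard error 0.156, 95% interval -0.87 to -0.09), with an unadjusted p = 0.0241 and a limma adjusted p = 0.198. With the replicate number as a block, a pairing that the labels do not state, TCF3 was called lower (limma adjusted p = 0.0492). TCF3 was the highest E protein gene in every library.

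TCF4 and TCF12 varied more within groups than between them. TCF4 (ENSG00000196628.15, chromosome 18, 55222331 to 55664787) was at 22.7 and 47.0 FPKM in Control and 24.2 and 48.1 FPKM in HAND1_OE, each time about as far apart within the group. Its log2 fold change was 0.06 (standard error 0.440, 95% interval -1.04 to 1.16, limma adjusted p = 0.972), an interval wide enough to hold a change of 1 in either direction. TCF12 (ENSG00000140262.17, chromosome 15, 56918623 to 57299281), which encodes HEB, was at 18.0 and 26.7 FPKM in Control and 20.3 and 27.1 FPKM in HAND1_OE. Its log2 fold change was 0.09 (standard error 0.244, 95% interval -0.52 to 0.70, limma adjusted p = 0.907). The groups overlapped for both genes. With the replicate number as a block, the 95% intervals were -0.16 to 0.28 for TCF4 and -0.16 to 0.34 for TCF12. The labels do not say that equal numbers mark a shared culture. Without Control replicate 1 the log2 fold changes were -0.45 for TCF4 and -0.18 for TCF12, and without HAND1_OE replicate 2 they were -0.42 and -0.11.

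The summed level of the 3 E protein genes was 192 and 217 FPKM in Control and 159 and 172 FPKM in HAND1_OE, so that both HAND1_OE libraries lay below. TCF3 made up 78.7% and 66.1% of the sum in Control and 72.0% and 56.3% in HAND1_OE. TCF4 made up 11.8% and 21.7% of it in Control and 15.2% and 27.9% in HAND1_OE, and the shares of both genes overlapped between groups. With 2 libraries against 2, an exact permutation test of such a sum or share cannot go below p = 0.333 (two-sided), so none was run.

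None of the 4 ID genes passed the limma test without a block either. With the replicate number as a block, ID2 (limma adjusted p = 0.0470) and ID4 (0.0429) were called lower. That setting called 712 genes lower, beside 309 without a block. ID1 (ENSG00000125968.8, chromosome 20, 31605283 to 31606515), a direct BMP target, was at 676 and 535 FPKM in Control and 500.4 and 501.8 FPKM in HAND1_OE. The groups did not overlap, but the Control libraries were themselves far apart (605 ± 99.96 against 501 ± 0.989 FPKM, SD, n = 2). Its log2 fold change was -0.26 (standard error 0.186, 95% interval -0.73 to 0.20, limma adjusted p = 0.567). ID2 (ENSG00000115738.9, chromosome 2, 8678845 to 8684453), an inhibitor with known roles in lymphoid and myeloid cells, was at 135 and 147 FPKM in Control and 91.2 and 110.5 FPKM in HAND1_OE, again with no overlap. Its log2 fold change was -0.49 (standard error 0.164, 95% interval -0.89 to -0.08), with an unadjusted p = 0.0271 and a limma adjusted p = 0.212.

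ID3 (ENSG00000117318.8, chromosome 1, 23557918 to 23559794), expressed with ID1 in many endothelial cells, was at 229 and 152 FPKM in Control and 200.3 and 161 FPKM in HAND1_OE. The HAND1_OE libraries lay within the range of the Control libraries, and the log2 fold change was -0.06 (standard error 0.243, 95% interval -0.66 to 0.55, limma adjusted p = 0.948). Its sign turned with the median-ratio scaling (0.04), with the length and GC trend removed (0.06), without Control replicate 1 (0.24) and without HAND1_OE replicate 2 (0.10). ID4 (ENSG00000172201.11, chromosome 6, 19837386 to 19840684), the lowest of the 4 in every library, was at 10.2 and 15.4 FPKM in Control and 5.50 and 9.70 FPKM in HAND1_OE. The groups did not overlap, though HAND1_OE replicate 2 came close to Control replicate 1. Its log2 fold change was -0.70 (standard error 0.309, 95% interval -1.47 to 0.07, limma adjusted p = 0.334).

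Per length, ID1 was the most abundant of the 10 transcripts in both Control libraries. By mean level it was followed in Control by ID3, TCF3, ID2, HAND2, TCF4, TCF12, HAND1, ID4 and HAND2-AS1. In that order TCF3 and ID2, HAND2 and TCF4, TCF4 and TCF12, and HAND1 and ID4 had overlapping ranges over the 2 libraries and were not separated beyond their spread. In HAND1_OE the order was HAND1, ID1, ID3, TCF3, ID2, TCF4, TCF12, HAND2, ID4 and HAND2-AS1. There the ranges overlapped for TCF3 and ID2, for TCF4 and TCF12, and for HAND2 and ID4. The place of HAND1 rests on the length annotated for the endogenous gene. HAND1, the overexpressed gene, thus went from place 8 to place 1. It was ahead of ID1 in both HAND1_OE libraries by little, with HAND1 to ID1 ratios of 1.04 and 1.03 beside 0.0179 and 0.0268 in Control.

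The dose of HAND1 RNA against its partners was read as ratios of FPKM within a library, which do not depend on the scaling between libraries. HAND1 stood at 0.0630 and 0.0660 of the summed E protein level in the Control libraries and at 3.27 and 3.004 times that sum in the HAND1_OE libraries. The difference of log2 ratios was 5.60, a 48.6-fold change, where the SD of the log2 ratio within groups was 0.0706. HAND1 is the overexpressed gene, so the direction of its ratios was set by the design and only their size is read here. HAND1 RNA was therefore scarcer than E protein RNA in each Control library and more abundant than it in each HAND1_OE library. Against the summed level of the 4 ID genes, HAND1 stood at 0.0115 and 0.0169 in Control and at 0.653 and 0.661 in HAND1_OE. By these values, which rest on the length annotated for endogenous HAND1, ID RNA remained the more abundant.

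The balance of inhibitors to E proteins, which does not include HAND1, did not differ between groups beyond their spread. The summed ID level was 1050.3 and 849 FPKM in Control and 797 and 783 FPKM in HAND1_OE, and ID1 made up 62.8% to 64.4% of it in the 4 libraries. The ratio of summed ID to summed E protein level was 5.48 and 3.91 in Control and 5.02 and 4.54 in HAND1_OE, both of the latter within the Control range. The difference of log2 ratios was 0.045, less than the SD within groups of 0.253. Its sign turned without Control replicate 2 (-0.20) and without HAND1_OE replicate 1 (-0.026).

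**Figure D3:**
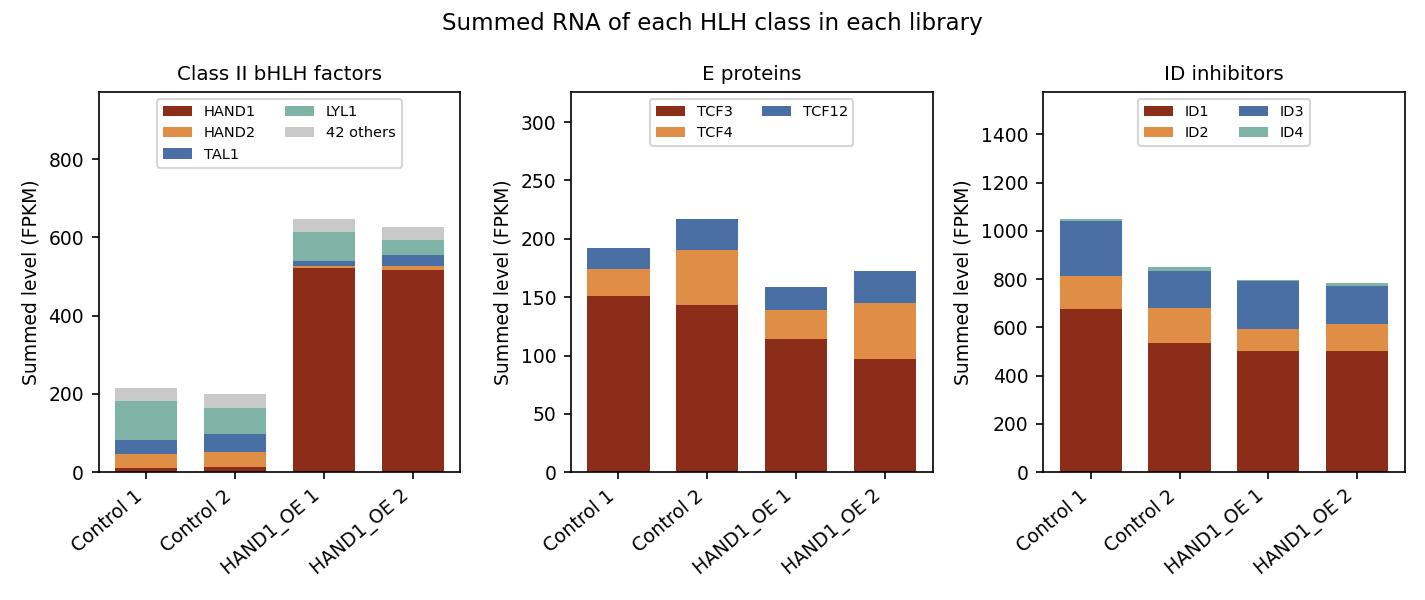
Summed level (FPKM, linear axes from 0, a different scale in each panel) of 46 class II bHLH genes, 3 E protein genes and 4 ID genes in each library, stacked by gene; grey is the sum of 42 other class II genes. The class II sum is 199 to 216 FPKM in Control and 626 to 648 FPKM in HAND1_OE, where HAND1 fills most of the bar, while the E protein and ID bars lie somewhat lower in HAND1_OE.

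The class II factors that share E proteins were read as a sum. HAND1 is the overexpressed gene, so its larger share of the sum was set by the design and by itself lowers the other shares. A list of 44 other class II bHLH genes was read with HAND1 and HAND2, and their summed level was 216 and 199 FPKM in Control and 648 and 626 FPKM in HAND1_OE. HAND1 made up 5.59% and 7.22% of this sum in Control and 80.4% and 82.7% in HAND1_OE, whereas HAND2 went from 16.4% and 18.5% to 1.12% and 1.45%. With HAND1 left out of the sum, the share of HAND2 was 17.4% and 19.97% in Control and 5.70% and 8.41% in HAND1_OE. The sum without HAND1 was 204 and 184 FPKM in Control and 127 and 108 FPKM in HAND1_OE. Of the 44 genes, 35 were under 1 FPKM in every library, 12 of them listed at 0 in all 4, and 8 were tested.

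The blood factors TAL1 and LYL1 led the class II sum in Control, at 16.6% and 24.1% and at 46.0% and 33.4% of it. TAL1, which is required for the formation of blood, was at 35.8 and 47.8 FPKM in Control and 12.0 and 28.4 FPKM in HAND1_OE. Both HAND1_OE libraries lay below, but far from each other, and the log2 fold change of -1.12 (standard error 0.397) did not pass (limma adjusted p = 0.232). Without HAND1_OE replicate 2 TAL1 was called lower (limma adjusted p = 0.0103). Its paralog LYL1 was at 99.4 and 66.3 FPKM in Control and 72.8 and 37.2 FPKM in HAND1_OE, with overlapping groups and a log2 fold change of -0.63 (limma adjusted p = 0.465). TWIST1, a mesenchymal factor that can also pair with HAND proteins, was at 4.98 and 6.44 FPKM in Control and 4.85 and 5.998 FPKM in HAND1_OE (-0.06, limma adjusted p = 0.930). Of the 8 class II genes tested, limma called 0 in either direction, with an unadjusted p under 0.05 for 2 higher and 4 lower genes, 6 with groups apart (46.3% of all genes were), and a median log2 fold change of -0.55. The level of TAL1 and LYL1 together was 0.705 and 0.526 of the E protein sum in Control and 0.533 and 0.381 of it in HAND1_OE, with overlapping groups.

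Cofactors that E protein complexes recruit were read next. Of 15 listed genes 14 were tested, 4 were called lower and 1 higher, where limma called 2.11% of all genes lower and 2.04% higher. Groups lay apart for 9 of the 14 (8 of them lower), beside 46.3% of all genes, and the median log2 fold change was -0.55. CBFA2T3 (ETO2), a corepressor of TAL1 and E2A complexes in blood, fell from 6.63 and 9.72 FPKM to 2.41 and 1.04 FPKM (log2 fold change -1.78, standard error 0.315, limma adjusted p = 0.0444). RUNX1T1 (ETO), its relative, fell from 14.6 and 15.8 FPKM to 4.27 and 5.68 FPKM (-1.45, limma adjusted p = 0.0209). Both are of the ETO family, whose other listed gene, CBFA2T2, was at 14.0 and 19.6 FPKM in Control and 11.3 and 19.9 FPKM in HAND1_OE (-0.14, limma adjusted p = 0.887).

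Among the bridging proteins of such complexes, LMO2 and LDB1 also fell, while the other 5 tested did not pass (limma adjusted p = 0.0567 to 0.764). LMO2, the LIM-only protein that joins TAL1 and E proteins to GATA factors, fell from 131 and 161 FPKM to 66.0 and 57.9 FPKM (log2 fold change -1.22, standard error 0.172, limma adjusted p = 0.0258). LDB1, which dimerises and ties such complexes together, fell from 74.5 and 85.4 FPKM to 40.1 and 45.8 FPKM (-0.88, limma adjusted p = 0.0453). The acetyltransferase KAT2B rose from 7.91 and 8.33 FPKM to 15.1 and 16.0 FPKM (0.86, limma adjusted p = 0.0429). KAT2A, of the same list, lay lower with groups apart and did not pass. It was at 56.6 and 46.9 FPKM in Control and 34.7 and 28.8 FPKM in HAND1_OE (-0.69, limma adjusted p = 0.112). The calls of the 5 cofactors lay close to the threshold. CBFA2T3 and LDB1 were not called with a pseudocount of 0.1 (limma adjusted p = 0.0596 and 0.0506) or with median-ratio scaling (0.0547 and 0.0626), and without Control replicate 2 none of the 5 was (0.0771 to 0.218). Without Control replicate 1 only LMO2 was called (0.0490), without HAND1_OE replicate 2 only CBFA2T3 (0.0438) and RUNX1T1 (0.0103) were, and KAT2B was not called whichever of the 4 libraries was left out (0.0987 to 0.185). Several of these cofactors are expressed in blood cells, whose markers were lower in HAND1_OE as given above, and the part of this in their change was not tested.

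**Figure D4:**
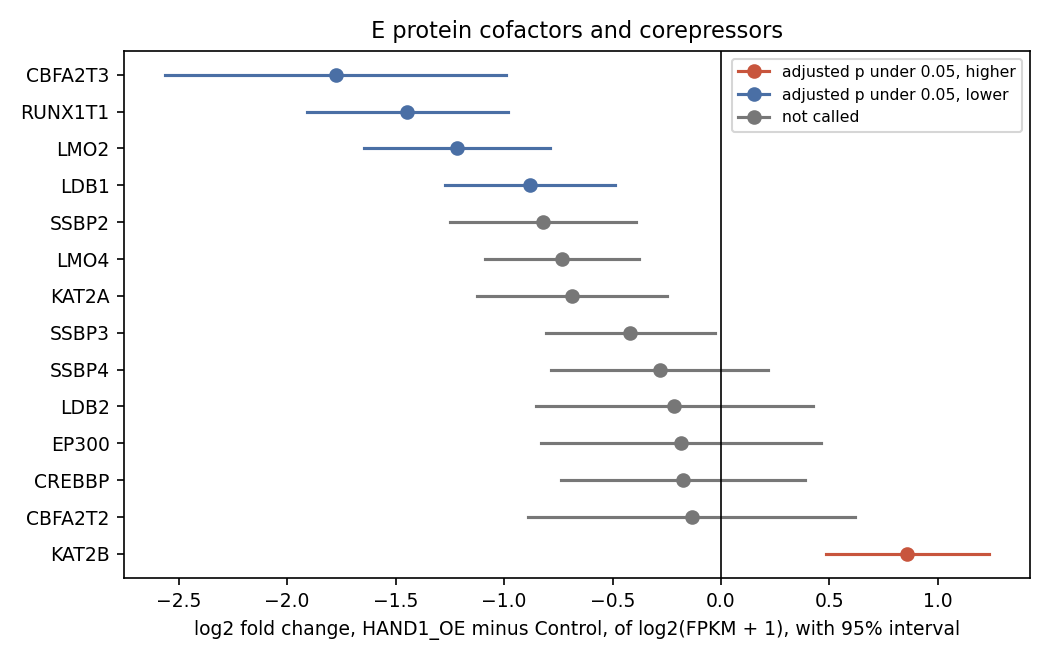
log2 fold change (HAND1_OE minus Control, of log2(FPKM + 1); points) with 95% interval from limma (bars) for the 14 cofactor genes tested, ordered by size; colours mark the call at an adjusted p under 0.05. CBFA2T3, RUNX1T1, LMO2 and LDB1 were called lower and KAT2B higher.

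Of other neighbours of the network few members were called. Among 13 bHLH-Orange repressors, which include the HES and HEY factors that act downstream of Notch, 8 were tested. Of these 1 was called, lower, where limma called 2.11% of all genes lower. Groups lay apart for 6 of the 8 (5 of them lower), beside 46.3% of all genes. At an unadjusted limma p under 0.05, 4 were lower and 1 higher, and the median log2 fold change was -0.60. HEY2, a factor of arterial endothelium and heart, fell from 36.5 and 31.9 FPKM to 12.7 and 16.3 FPKM (log2 fold change -1.19, standard error 0.181, limma adjusted p = 0.0311). It was not called without Control replicate 1 (0.115), Control replicate 2 (0.0822) or HAND1_OE replicate 1 (0.0567). Of 11 partners and modifiers of HAND factors, among them GATA4, MEF2C and NKX2-5, 9 were tested and limma called 0, with an unadjusted p under 0.05 for 1 higher and 2 lower genes and a median of 0.05.

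The BMP and SMAD genes that act upstream of ID genes were read beside the ID levels. Of 27 listed genes 21 were tested, 1 was called higher and 0 lower, near the 2.04% and 2.11% of all genes, 14 had groups apart (9 higher), beside 46.3% of all genes, and the median log2 fold change was 0.26. At an unadjusted p under 0.05, 6 were higher and 2 lower. The called gene was BMP10, a ligand of endothelial BMP receptors made mainly in the heart. It went from 0.452 and 0.461 FPKM to 2.49 and 3.78 FPKM (log2 fold change 1.49, standard error 0.237, limma adjusted p = 0.0347). It reached 1 FPKM only in the HAND1_OE libraries and so passed the filter through that group alone. It was not called without Control replicate 1 (0.0880), Control replicate 2 (0.0930) or HAND1_OE replicate 2 (0.0732). With quantile normalization or median-ratio scaling 3 of the list were called higher.

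The difference between the libraries of a group was also compared by replicate number for the 10 genes. TCF4 was 2.07 times as high in replicate 2 as in replicate 1 of Control and 1.99 times as high in HAND1_OE. TCF12 was 1.48 and 1.34 times as high, ID4 was 1.51 and 1.76 times as high, and ID3 stood at 0.666 and 0.802 of its replicate 1 level. HAND2 (1.04 and 1.26), HAND2-AS1 (1.04 and 1.497), ID2 (1.09 and 1.21) and TCF3 (0.950 and 0.847) also differed in the same direction in both groups. HAND1 (1.19 and 0.994) and ID1 (0.791 and 1.003) did not. The GC content of transcripts was 38.2% for TCF4, 40.8% for TCF12, 46.97% for ID4, 57.1% for ID3 and 41.2% for HAND2-AS1. It was 58.5% for HAND2 and 53.3% for ID2, both higher in replicate 2 of each group, and 61.15% for TCF3, lower in replicate 2 of each group. For HAND1 it was 57.4% and for ID1 58.6%. The part of GC content in these differences was not tested.

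**Figure D5:**
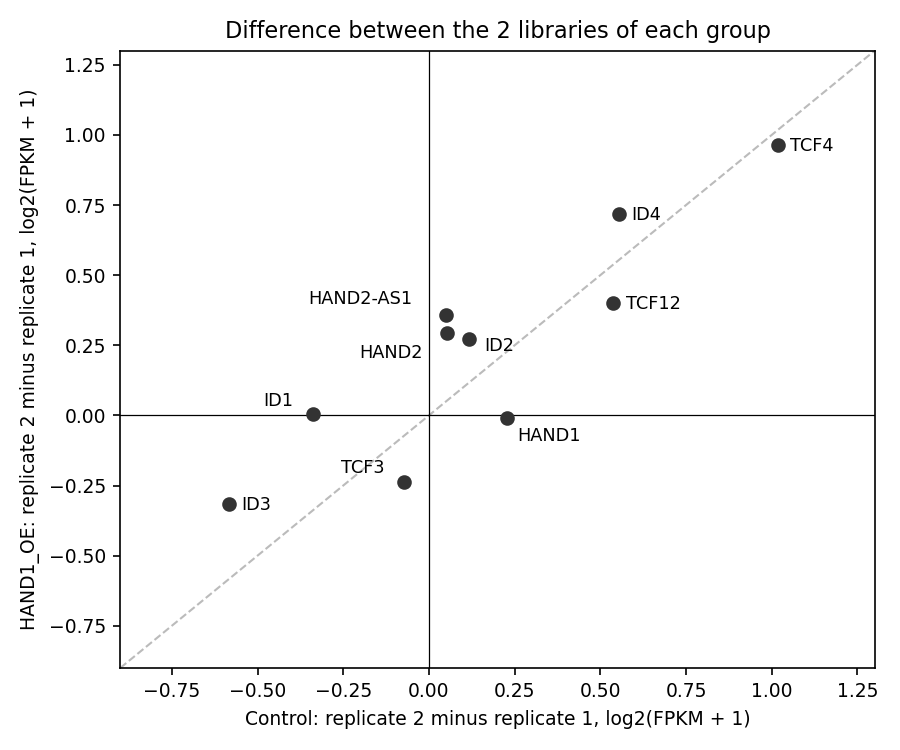
Difference between replicate 2 and replicate 1 (log2(FPKM + 1)) in Control (horizontal) and in HAND1_OE (vertical), 1 point per gene; the dashed line marks equal differences. TCF4, TCF12 and ID4 lie to the upper right and ID3 to the lower left, while HAND2, HAND2-AS1 and ID2 differ more in HAND1_OE than in Control.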

How the data were processed

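Total RNA of 2 Control and 2 HAND1_OE samples was sequenced after library preparation with an Illumina TruSeq kit, and sample titles gave the groups. The authors deposited 1 table of gene values, taken here to be FPKM because a plot of the study for these cells uses that unit and the values are fractional with unequal totals, although no unit is stated with the table. The submitters' processing notes name BWA, Bowtie, RSEM and hg19, with no role or version. Of 58229 genes kept from 58365 rows, 55605 matched GENCODE release 29 by versioned ID and 55583 of these had the same start and end on GRCh38, so GRCh38 is used for coordinates. Left out were 45 rows of pseudoautosomal genes on the Y and 91 further rows that shared a gene ID. FPKM holds no counts, so the depth is unknown and no counting interval is given. Values listed at 0 can be failed estimates. A further marker list is not reported here.

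The 14622 genes that reached 1 FPKM in 2 libraries or more were tested for a difference between HAND1_OE and Control on log2(FPKM + 1). The test was limma 3.58.1 under R 4.3.3 (mean-variance trend, two-sided), with Benjamini-Hochberg adjustment over all genes tested. The code was tested on simulated data. The members and lists were chosen with earlier results of these data known. Named were the 10 members, up to 4 called genes per list with the largest changes, TAL1, LYL1, TWIST1, PECAM1, CDH5, SPN and GATA1. KAT2A, KAT2B, CBFA2T2, the 3 HAND partners and the other markers were named after their values were seen. Alternatives were a pseudocount of 0.1, other filters and scalings, no trend, a replicate block, protein-coding genes alone, a fold change of at least 2, each library left out and, chosen after seeing the data, removal of the length and GC trend of each library.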

Additional observations from a re-analysis of the deposited data

How the results depend on the processing

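When the filter was dropped and 29860 genes were tested, HAND1 stayed at 5.20 but its adjusted p was 0.153. In that setting limma called 0 genes higher and 0 lower (1458 and 2352 at an unadjusted p under 0.05) and 0 members lower (HAND2 0.153, HAND2-AS1 0.172). The cause was not tested. Protein-coding genes alone left 1 member called lower, since HAND2-AS1 is not among them. With the TCF3 and TCF12 sum, the log2 difference of the HAND1 to E protein ratio was 5.69. Labels do not say that equal replicate numbers mark a shared culture. Across genes the replicate 2 minus 1 differences of the 2 groups had r = 0.383. With the replicate number as a block, 597 genes were higher and 712 lower, and 5 members were lower: HAND2, HAND2-AS1, TCF3 (adjusted p = 0.0492), ID2 (0.0470) and ID4 (0.0429).

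With each library left out in turn, HAND1 was at 5.08 to 5.31 (adjusted p at most 0.00319), genes higher numbered 134 (without Control replicate 2) to 266 and genes lower 137 to 309. Without Control replicate 1 these were 141 and 144. Members lower numbered 1 (without either Control library) or 2, and members higher 0. The HAND1 to E protein log2 difference was 5.54 to 5.67 and that of ID to E protein -0.20 to 0.29, at -0.20 without Control replicate 2 and -0.026 without HAND1_OE replicate 1. Signs turned for 3 uncalled members. ID3 was at 0.037 with median-ratio scaling, 0.062 with the length and GC trend removed, 0.24 without Control replicate 1, 0.10 without HAND1_OE replicate 2 and -0.35 without Control replicate 2. Over the libraries left out, TCF4 ranged from -0.45 to 0.57 and TCF12 from -0.18 to 0.36; both were below 0 without Control replicate 1 or HAND1_OE replicate 2. HAND2 stayed called in 12 of 13 alternatives (-2.17 to -1.88) and HAND2-AS1 in 9 of 12 (-1.99 to -1.38). Of 130 list counts under alternatives 36 moved by over 1.5 times. DESeq2 and edgeR, planned for counts, were not run on FPKM.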
